A study of Mus musculus with 24 samples.

Results

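The interferon response genes are a set of 46 mouse genes known as targets of type I interferon (the alpha and beta interferons) or type II interferon (interferon gamma). They were listed by name as known targets and were read in the livers of germ-free and conventional mice fed fish oil or lard. Each gene was taken from the probe set that carries its symbol alone in the platform annotation, and from the brightest such probe set where a gene had several. On this rule 40 of the 46 genes were measured, among 19938 genes in all. Isg15 shares its probe set with Gm9706, Gbp2 with Gbp2b and Gbp6 with other Gbp genes, Igtp and Irgm2 share 1 probe set, and Ifi44 had no probe set listed, so these 6 were not analysed here.

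The platform was Affymetrix's MoGene 1.0 ST array, read on liver RNA, and every value below is the authors' log2 signal after robust multi-array averaging (RMA), which normalizes the arrays to a common distribution. The 4 groups of 6 male C57Bl/6 mice were germ-free mice on fish oil, conventional mice on fish oil, germ-free mice on lard and conventional mice on lard. Germ-free mice live without microbes, and conventional mice carry an ordinary microbiota. All mice ate menhaden fish oil or lard in a diet with 45% of energy as fat for 11 weeks and were fasted for 4 hours before sampling. The labels also give 11 weeks as the age, without settling whether this was the age at the start of feeding or at sampling. They do not say whether germ-free and conventional mice came from 1 colony, and they give no litters, cages or array batches.

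Some arrays stood apart. Fish oil germ-free mice 3 and 4 differed over the 300 most variable genes with an SD of 0.123, against 0.349 for the next closest of the 60 pairs within groups. Their mean, written as mouse 3/4, was counted as 1 sample, so that 23 samples entered the fits, 5 of them from fish oil germ-free mice. Fish oil conventional mice 3 and 4 lay farthest from mice 5 and 6 of the same group, with SDs between 1.61 and 1.76. This distance does not say which pair is unusual, so some results are also given without one pair or the other. The hepatocyte markers Alb and Apoa1 lay between 13.88 and 14.31 in every mouse, near the top of the scale, and none of the 8 hepatocyte markers measured was called in any comparison. The median over the 19938 genes lay between 6.922 and 7.058 on the arrays, and 3 members, Ifit2, Mx1 and Mx2, lay below it on every array. In whole liver, fewer cells of a type and less RNA per cell cannot be told apart.

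Type I interferon binds the receptor Ifnar1 and Ifnar2 and activates the kinases Jak1 and Tyk2, after which a complex that holds Stat2 and Irf9 binds the interferon-stimulated response element (ISRE) in target promoters. Interferon gamma uses Ifngr1 and Ifngr2 and acts through the gamma-activated sequence (GAS). The targets include sensors of foreign nucleic acid, antiviral effectors, GTPases that attack intracellular pathogens, and the machinery that prepares peptides for antigen presentation. In the liver, hepatocytes, endothelial cells and the resident macrophages (Kupffer cells) all respond to interferon, and these genes can be transcribed without infection.

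The promoters show the elements through which these genes are known to be read. RefSeq promoter sequences (GRCm38.p6, 250 bases before to 50 bases after the transcription start) were found for 35 of the 46 genes. The ISRE core, searched on both strands as GAAA, any 2 bases (NN) and GAAA again, was present in 17 of the 35 genes (48.6%), against 3.99% of the 27025 genes in the table and 3.44% of its 32851 promoters. These letters are also those of the element bound by interferon regulatory factors, so the 2 elements cannot be told apart. The GAS core, searched as TTCNNNGAA, which reads the same on both strands, was present in 9 of the 35 (25.7%), against 9.55% of all genes and 8.3% of all promoters. Both cores were present in 5 genes, Bst2, Gbp7, Igtp, Irgm2 and Oas1a, and shared bases in 1 of them, Bst2. The promoters of 6 genes are printed 5′ to 3′ along the gene, with the ISRE core in capitals: Trim30a and Stat2 because they were lower in germ-free mice on fish oil and hold the core, Ifih1 and Bst2 because they hold it and were called in another comparison, Ifit3 because it holds 2 cores and was not called, and Irf7 because it was called without a match.
Trim30a (chr7:104465144-104465443, minus strand): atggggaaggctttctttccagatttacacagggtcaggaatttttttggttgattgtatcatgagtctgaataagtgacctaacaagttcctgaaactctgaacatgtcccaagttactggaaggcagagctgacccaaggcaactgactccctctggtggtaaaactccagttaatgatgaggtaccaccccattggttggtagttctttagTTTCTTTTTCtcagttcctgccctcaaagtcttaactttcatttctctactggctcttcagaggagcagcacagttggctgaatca
Stat2 (chr10:128270248-128270547, plus strand): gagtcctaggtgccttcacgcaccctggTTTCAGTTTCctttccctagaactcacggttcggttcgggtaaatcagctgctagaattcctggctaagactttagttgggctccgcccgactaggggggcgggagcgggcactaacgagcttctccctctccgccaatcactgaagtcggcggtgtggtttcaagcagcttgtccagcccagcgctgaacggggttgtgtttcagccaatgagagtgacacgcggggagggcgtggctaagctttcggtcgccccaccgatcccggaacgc
Ifih1 (chr2:62646206-62646505, minus strand): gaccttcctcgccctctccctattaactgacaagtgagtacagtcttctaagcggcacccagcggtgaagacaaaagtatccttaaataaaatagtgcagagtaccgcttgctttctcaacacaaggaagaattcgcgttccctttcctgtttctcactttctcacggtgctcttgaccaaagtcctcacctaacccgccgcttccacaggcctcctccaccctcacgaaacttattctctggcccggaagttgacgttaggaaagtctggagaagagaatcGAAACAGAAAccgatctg
Bst2 (chr8:71537423-71537722, minus strand): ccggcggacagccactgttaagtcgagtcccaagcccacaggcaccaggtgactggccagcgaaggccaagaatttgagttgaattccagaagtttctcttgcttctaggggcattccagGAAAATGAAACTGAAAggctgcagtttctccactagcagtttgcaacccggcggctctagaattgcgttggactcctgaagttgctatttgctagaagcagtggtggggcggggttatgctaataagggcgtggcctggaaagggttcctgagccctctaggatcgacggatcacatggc
Ifit3 (chr19:34583279-34583578, plus strand): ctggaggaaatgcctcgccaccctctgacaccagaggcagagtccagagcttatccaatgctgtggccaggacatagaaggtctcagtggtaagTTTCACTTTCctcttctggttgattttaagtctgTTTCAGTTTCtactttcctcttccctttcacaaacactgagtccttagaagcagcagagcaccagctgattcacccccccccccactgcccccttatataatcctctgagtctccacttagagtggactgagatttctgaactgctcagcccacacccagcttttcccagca
Irf7 (chr7:141266375-141266674, minus strand): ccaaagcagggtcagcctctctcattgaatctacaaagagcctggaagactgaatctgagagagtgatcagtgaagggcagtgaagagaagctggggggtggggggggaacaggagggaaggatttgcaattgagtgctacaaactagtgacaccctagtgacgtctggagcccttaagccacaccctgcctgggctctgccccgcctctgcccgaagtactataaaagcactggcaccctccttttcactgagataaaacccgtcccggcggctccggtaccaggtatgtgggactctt

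**Figure D1:**
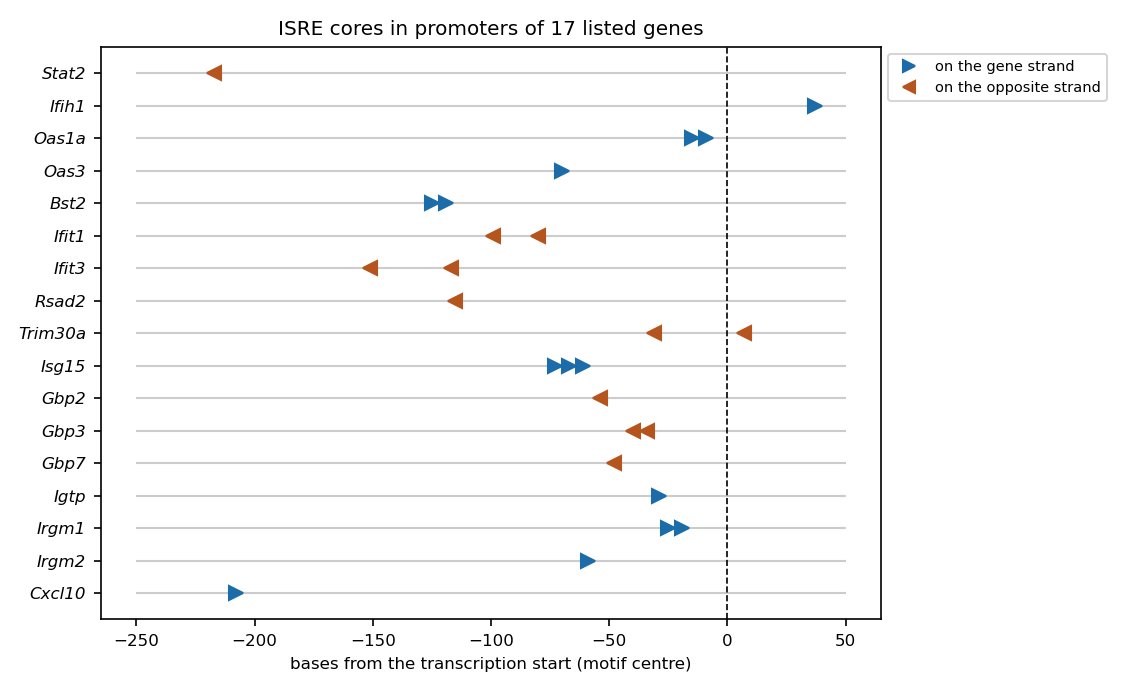
Positions of the ISRE core in the promoters of the 17 listed genes that hold it, in bases from the transcription start to the centre of the core (horizontal axis), with arrowheads for the strand that reads GAAA; all annotated starts of a gene are drawn on its row. The cores of Stat2 (-217) and Cxcl10 (-208) lie farthest before the start, and those of Ifih1 (37) and 1 promoter of Trim30a (7) lie after it.

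The cores were also counted by call. Of the 30 measured members with a promoter in the table, 2 of the 10 that were called lower in germ-free mice on fish oil held an ISRE core, and 11 of the 20 that were not called held one. The counts for the GAS core were 2 of 10 and 5 of 20. A match describes letters in a window of 300 bases, and no match says only that they are absent from it.

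**Figure D2:**
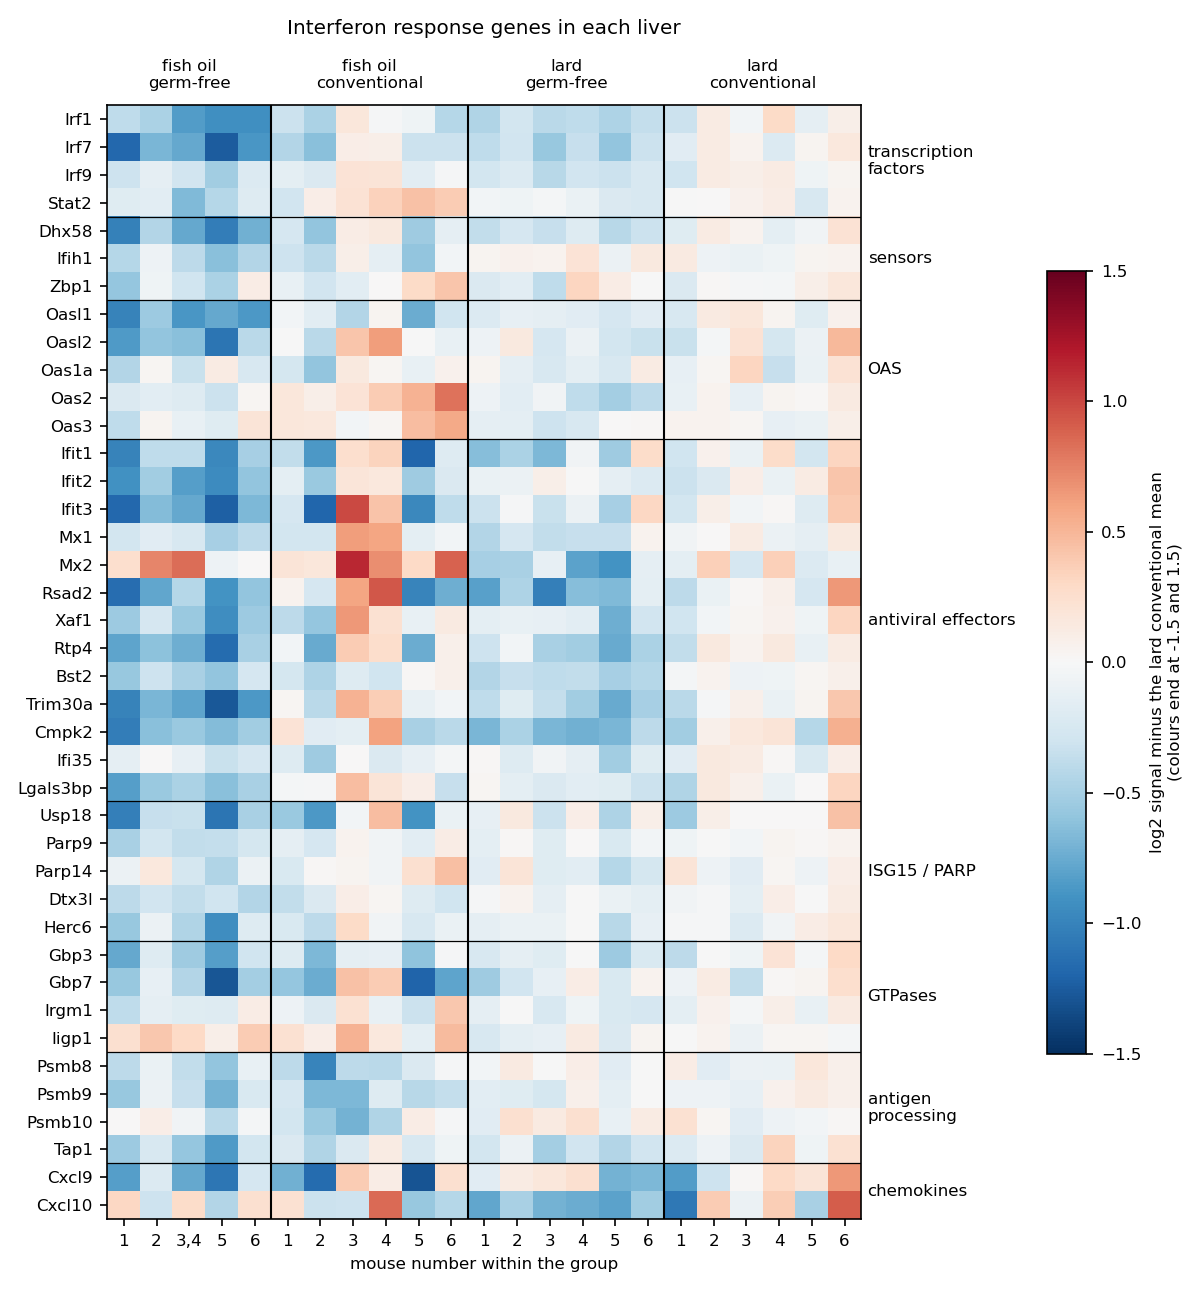
Log2 signal of the 40 measured genes in each mouse, minus the gene's mean in the conventional mice on lard, with genes in rows by role and mice in columns by group (colours end at -1.5 and 1.5). The germ-free mice on fish oil are blue for most genes, Mx2 and Iigp1 are exceptions, and mice 3 and 4 of the fish oil conventional group are red for many genes.

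On fish oil, germ-free mice were set against conventional mice to ask how the absence of microbes goes with the interferon response on this diet. The genes that differed were all lower in the germ-free mice. By limma with Benjamini-Hochberg adjustment over 19938 genes, 14 of 40 members fell, none rose and 26 did not pass an adjusted p of 0.05, while 6.91% of all genes passed (3.89% lower, 3.01% higher). The median log2 difference was -0.31 over the members and -0.03 over all genes, and 34 of 40 members were below 0 (57.9% of all genes). Groups did not overlap for 7 members, all lower in germ-free mice (2.41% of all genes, with 1.39% higher). At an unadjusted p under 0.05, 24 members were lower and 0 higher (11.4% and 8.89% of all genes, 20.3% in either direction). The fold decreases of the called members ran between 1.98 for Trim30a and 1.21 for Parp9.

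Of the 4 transcription factors, 3 fell and the median of the 4 was -0.52. Irf7, the factor that drives and amplifies type I interferon production, had log2 signals of 8.32, 8.82, 8.73, 8.25 and 8.63 in germ-free mice 1, 2, 3/4, 5 and 6. The conventional mice lay between 8.87 and 9.6 (median 9.18), so the groups did not overlap, and the difference was -0.69 ± 0.12 (SE, adjusted p = 0.00127 by limma). Stat2, a subunit of the complex that binds the ISRE, had 9.46, 9.49, 8.98, 9.22 and 9.45 in germ-free mice, against 9.36 to 10.09 (median 9.93) in conventional mice. Its ranges overlapped at conventional mouse 1, the lowest of its group, and the difference was -0.53 ± 0.11 (adjusted p = 0.00394). Irf1, a factor induced by interferon gamma, had 8.87, 8.78, 8.42, 8.34 and 8.34 in germ-free mice and lay between 8.78 and 9.43 (median 9.06) in conventional mice (difference -0.52 ± 0.12, adjusted p = 0.00933). The second Irf1 probe set, which is dimmer (mean 6.65), differed by -0.02, so the 2 probe sets of this gene disagree. Irf9, the DNA-binding partner of Stat2, had 9.3, 9.48, 9.32, 9.09 and 9.4 in germ-free mice and 9.39 to 9.82 (median 9.52) in conventional mice, and did not pass (adjusted p = 0.0745).

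Of the 3 sensors of foreign nucleic acid 1 passed, and all 3 estimates were below 0. Dhx58, an RNA helicase of the cytoplasmic sensor family, had 7.78, 8.36, 8.03, 7.76 and 8.08 in germ-free mice, against 8.21 to 8.94 (median 8.6) in conventional mice. Germ-free mouse 2 lay inside the conventional range and the other samples below it, and the difference was -0.59 ± 0.12 (adjusted p = 0.00446). Ifih1, the sensor of long double-stranded RNA, had 9.34, 9.69, 9.37, 9.14 and 9.33 in germ-free mice, against 9.17 to 9.85 (median 9.54) in conventional mice, and only germ-free mouse 5 lay below that range. Zbp1, which senses left-handed nucleic acid helices, had 7.42, 7.94, 7.7, 7.53 and 8.12 in germ-free mice and 7.72 to 8.42 (median 7.95) in conventional mice. Neither Ifih1 (adjusted p = 0.422) nor Zbp1 (adjusted p = 0.239) passed.

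In the family of the oligoadenylate synthetases, whose products switch on RNase L, and of the related OAS-like proteins, 3 of 5 fell. Oasl2, an OAS-like protein, had 7.6, 7.86, 7.82, 7.35 and 8.04 in germ-free mice. The conventional mice lay between 8.04 and 9.08 (median 8.44), so the groups did not overlap, although they met at 8.04 after rounding, and the difference was -0.8 ± 0.16 (adjusted p = 0.00345). Oasl1, an OAS-like protein that restrains Irf7 translation in mice, had 8.41, 8.86, 8.54, 8.64 and 8.55 in germ-free mice, against 8.67 to 9.45 (median 9.18) in conventional mice. Its overlap came from germ-free mouse 2 and conventional mouse 5, and the difference was -0.54 ± 0.11 (adjusted p = 0.00361). Oas2 had 6.91, 6.97, 6.93, 6.81 and 7.16 in germ-free mice and 7.21 to 7.94 (median 7.42) in conventional mice, with no overlap and a difference of -0.53 ± 0.11 (adjusted p = 0.00362). Oas3 had 6.13, 6.56, 6.41, 6.33 and 6.71 in germ-free mice, against 6.48 to 7.08 (median 6.68), and did not pass (adjusted p = 0.0699). Oas1a differed by -0.05 ± 0.13.

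The largest single difference lay among the antiviral effectors, of which 6 of 13 fell (median -0.57). Trim30a, a mouse ubiquitin ligase known to restrain inflammatory signalling, had 8.18, 8.49, 8.39, 7.9 and 8.31 in germ-free mice. Every conventional mouse was higher, between 8.77 and 9.7 (median 9.17), and the difference was -0.99 ± 0.15 (adjusted p = 0.000249). Lgals3bp, a secreted glycoprotein that binds galectins, had 11.02, 11.29, 11.37, 11.21 and 11.36 in germ-free mice, against 11.5 to 12.3 (median 11.88), again with no overlap (difference -0.65 ± 0.12, adjusted p = 0.00185). Ifit2, which binds foreign RNA and blocks its translation, had 5.71, 6.1, 5.8, 5.68 and 6.03 in germ-free mice and 6.06 to 6.8 (median 6.44) in conventional mice (difference -0.57 ± 0.13, adjusted p = 0.00981). Only germ-free mouse 2 reached into the conventional range of Ifit2.

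Rtp4, Cmpk2 and Xaf1 were called with adjusted p nearer the threshold. Rtp4, a transporter of receptors with antiviral activity, had 8.06, 8.24, 8.12, 7.7 and 8.37 in germ-free mice and 8.1 to 9.23 (median 8.87) in conventional mice (difference -0.62 ± 0.18, adjusted p = 0.0347). Cmpk2, a mitochondrial nucleotide kinase, had 6.89, 7.3, 7.36, 7.27 and 7.4 in germ-free mice, all below the conventional range of 7.43 to 8.52 (median 7.76), with a difference of -0.61 ± 0.17 (adjusted p = 0.0337). Xaf1, a regulator of cell death, had 6.71, 7.0, 6.69, 6.32 and 6.71 in germ-free mice and 6.67 to 7.9 (median 7.27) in conventional mice (difference -0.56 ± 0.17, adjusted p = 0.0405). These 3 calls ended when single mice were left out. Rtp4 lost its call without fish oil conventional mouse 1, 3, 4 or 6 or germ-free mouse 1, 3/4 or 5, with adjusted p between 0.0559 and 0.0954. Cmpk2 lost it without conventional mouse 1 or 4 or germ-free mouse 1, 2, 3/4 or 5 (adjusted p between 0.0539 and 0.112). Xaf1 lost it without conventional mouse 3, 4 or 6 or germ-free mouse 1, 3/4, 5 or 6 (adjusted p between 0.0616 and 0.111).

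Rsad2 (viperin, an enzyme that makes a chain-terminating nucleotide) and Ifit3 had large estimates that did not pass, with conventional mice that differed widely. Rsad2 had 7.53, 7.9, 8.25, 7.78 and 8.08 in germ-free mice and 7.69 to 9.61 (median 8.57) in conventional mice (difference -0.7 ± 0.25, adjusted p = 0.101). Ifit3 had 8.03, 8.56, 8.44, 7.98 and 8.53 in germ-free mice and 8.02 to 10.2 (median 8.89) in conventional mice (difference -0.67 ± 0.26, adjusted p = 0.131). In both genes conventional mice 3 and 4 were the highest. Ifit1 had 7.21, 7.83, 7.83, 7.25 and 7.71 in germ-free mice and 7.02 to 8.55 (median 7.93) in conventional mice (difference -0.31 ± 0.23).

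Parp9, which with its partner Dtx3l forms a ubiquitin ligase of the interferon response, was the called gene with the smallest difference. It had 8.74, 8.95, 8.85, 8.86 and 8.96 in germ-free mice, below every conventional mouse (8.97 to 9.33, median 9.13), and differed by -0.28 ± 0.07 (adjusted p = 0.0129). Dtx3l had 9.6, 9.71, 9.62, 9.69 and 9.55 in germ-free mice and 9.62 to 10.09 (median 9.79) in conventional mice (difference -0.2 ± 0.08, adjusted p = 0.124). Usp18, which removes the ubiquitin-like protein ISG15 and damps receptor signalling, had 8.15, 8.83, 8.84, 8.08 and 8.69 in germ-free mice and 8.28 to 9.64 (median 8.85) in conventional mice (difference -0.33 ± 0.21, adjusted p = 0.41). With Herc6 and Parp14, 5 of 5 estimates in this role were below 0 and 1 passed.

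None of the 4 GTPases, the 4 genes of peptide processing and transport or the 2 chemokines passed in this comparison. The medians were -0.15 for the GTPases, 0.06 for the peptide processing genes and -0.06 for the chemokines. Psmb10, a subunit of the immunoproteasome, had the highest difference of all members, with 8.89, 8.99, 8.84, 8.48 and 8.86 in germ-free mice and 8.18 to 9.0 (median 8.53) in conventional mice (difference 0.24 ± 0.12, adjusted p = 0.282). Cxcl10, a chemokine that draws T cells, had 8.78, 8.15, 8.74, 8.03 and 8.71 in germ-free mice and 7.9 to 9.31 (median 8.14) in conventional mice (difference 0.11 ± 0.26). Psmb8, another immunoproteasome subunit, had 7.59, 7.89, 7.61, 7.39 and 7.87 in germ-free mice and 6.99 to 7.97 (median 7.59) in conventional mice (difference 0.09 ± 0.12). Iigp1, a GTPase that disrupts pathogen vacuoles in mice, had 11.5, 11.66, 11.55, 11.34 and 11.64 in germ-free mice and 11.11 to 11.78 (median 11.45) in conventional mice (difference 0.05 ± 0.1). The germ-free values of both genes lay inside the conventional ranges. Cxcl9, a relative of Cxcl10, had 8.7, 9.32, 8.76, 8.44 and 9.27 in germ-free mice and 8.23 to 9.9 (median 9.22) in conventional mice. The wide ranges in the conventional mice covered the germ-free values of both chemokines.

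**Figure D3:**
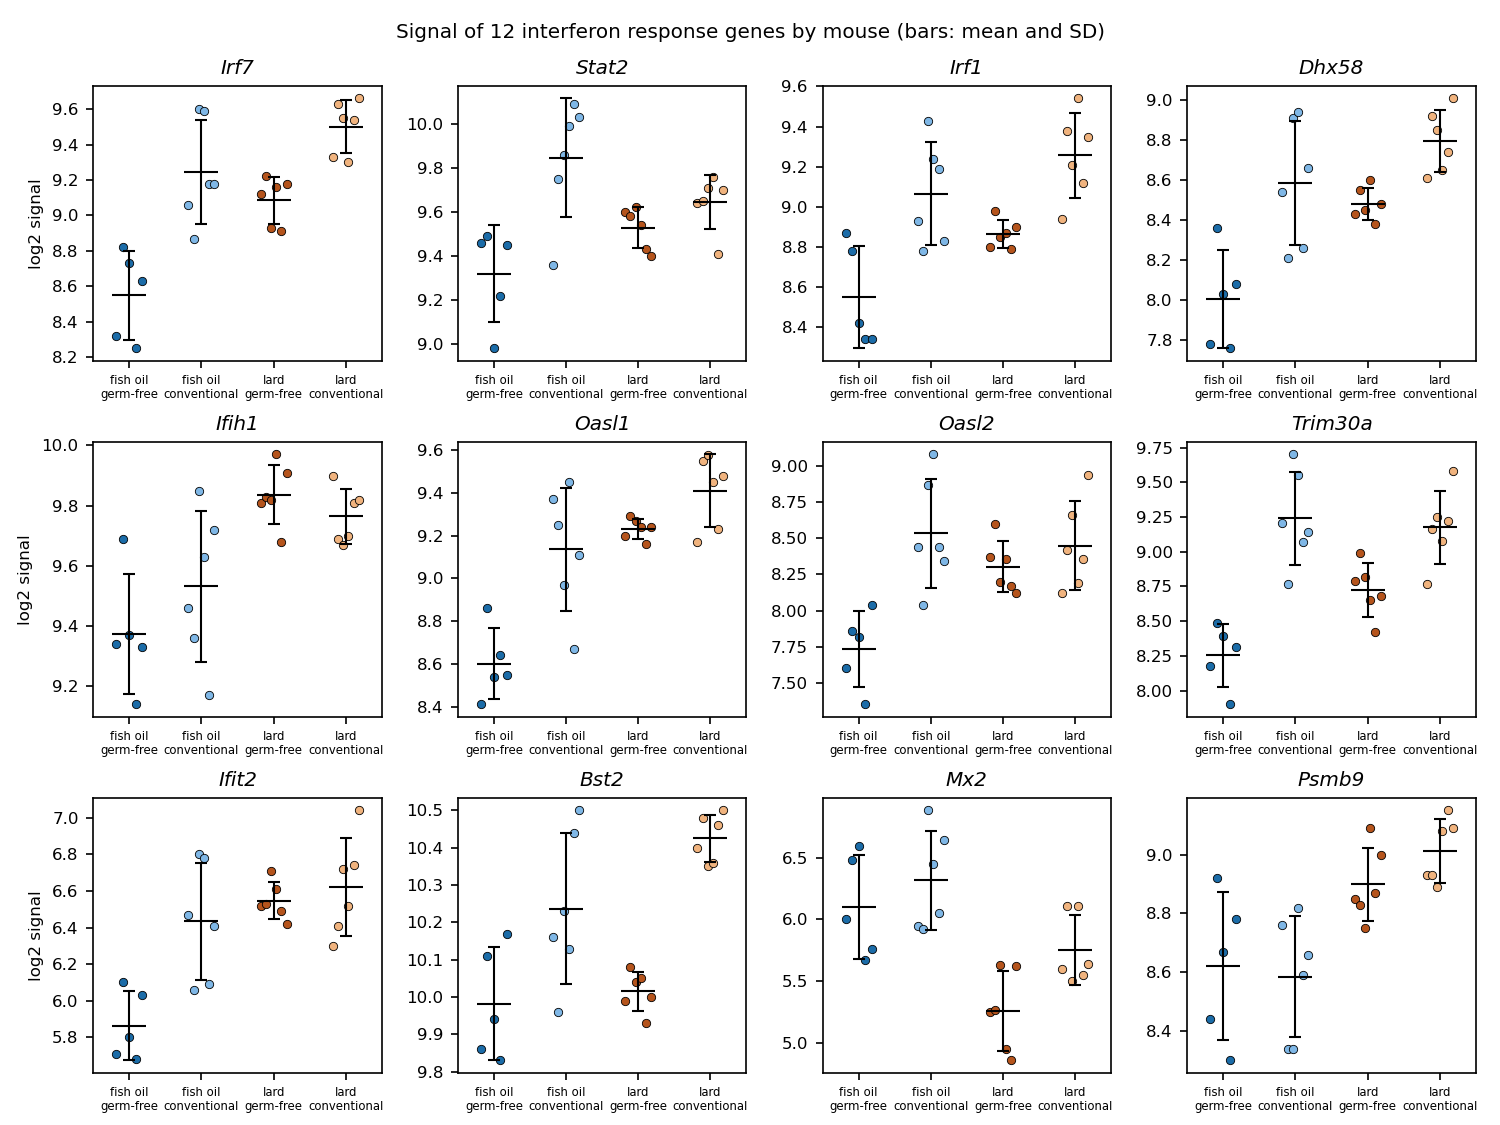
Log2 signal of 12 members in every mouse (points), with the group mean and SD (bars), in germ-free and conventional mice on fish oil and on lard. Irf7, Oasl1, Oasl2, Trim30a and Ifit2 are lowest in the germ-free mice on fish oil, Bst2 separates germ-free from conventional mice on lard, and Mx2 is lowest in the germ-free mice on lard.

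Macrophage markers moved with this comparison. Of 12 Kupffer cell and macrophage markers, 9 fell in the germ-free mice on fish oil, and their summed linear signal was 5977 to 8284 in germ-free mice and 8822 to 17498 in conventional mice, with no overlap. Clec4f, a lectin that defines Kupffer cells, averaged 9.91 ± 0.19 in germ-free mice (SD, n = 5) and 10.61 ± 0.31 in conventional mice (SD, n = 6), and Vsig4 averaged 10.21 ± 0.19 and 11.42 ± 0.29 in the same groups. Of 6 endothelial markers 4 fell, of which Pecam1 lost its call in 21, Stab2 in 20 and Lyve1 in 11 of 38 alternatives. In addition, 0 of 4 markers of plasmacytoid dendritic cells, the main producers of type I interferon, passed (1 at an unadjusted p under 0.05). The part of these markers in the result was not tested. Fish oil conventional mice 3 and 4, the highest of their group by the median over the members, had its lowest macrophage sums. Without those 2 mice, a choice made after seeing the data, 10 members fell (median -0.22) and 12 of 12 macrophage markers fell. Of the 14 calls, 9 were shared with that fit, and Oas3 joined them (-0.43 ± 0.1, adjusted p = 0.0128). The 5 lost were Irf1 (-0.38, adjusted p = 0.052), Ifit2 (-0.39, adjusted p = 0.0602), Cmpk2 (-0.46, adjusted p = 0.106), Rtp4 (-0.39, adjusted p = 0.184) and Xaf1 (-0.33, adjusted p = 0.195). Irf1 was also lost without germ-free mice 5 and 6 of both diets (-0.38, adjusted p = 0.099). Without fish oil conventional mice 5 and 6 instead, 17 members were called by limma, 16 lower and 1 higher (median -0.33). The higher one was Psmb10 (0.42 ± 0.11, adjusted p = 0.0157). Rsad2 (-1.1 ± 0.22, adjusted p = 0.00244), Ifit3 (-0.89 ± 0.27, adjusted p = 0.0386) and Mx1 (-0.49 ± 0.15, adjusted p = 0.0447) joined the lower ones. In that fit 5 of 12 macrophage markers fell.

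Other genes of the interferon pathway, outside the 46, gave 7 lower and 1 higher among 59 measured of 70 listed (13.6%, against 6.91% of all genes), with a median of -0.04. Among these Ikbke, a kinase that activates interferon regulatory factors, averaged 8.82 ± 0.21 in germ-free mice and 9.46 ± 0.25 in conventional mice (difference -0.65 ± 0.11, adjusted p = 0.00101). Tlr3, the endosomal receptor of double-stranded RNA, averaged 6.85 ± 0.21 and 7.54 ± 0.24 in the same groups (difference -0.68 ± 0.13, adjusted p = 0.00226). Ifngr1, the ligand-binding chain of the interferon gamma receptor, averaged 9.27 ± 0.14 and 9.68 ± 0.12 (difference -0.42 ± 0.08, adjusted p = 0.00356). The type I receptor chains differed by 0.05 ± 0.07 (Ifnar1) and by 0.0 ± 0.06 (Ifnar2), and neither passed. None of 16 interferon genes passed, none of them at an unadjusted p under 0.05, and none of 8 signalling genes did. Several interferon probe sets were dim, below the 25th percentile of genes (5.541 to 5.78 on the arrays), so a change in them could be missed. Ifnb1 averaged 4.79 in germ-free and 4.97 in conventional mice, and Ifna11 3.38 and 3.39, while Ifnl2 averaged 8.61 and 8.79. The 1 higher gene was Erap1, a peptidase that trims antigenic peptides (0.39 ± 0.09, adjusted p = 0.00649), named after its values were seen. H2-K1 was not analysed here.

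The second comparison set fish oil against lard in germ-free mice, and so asked how the diets differ where no microbes are present. It shares the germ-free mice on fish oil with the first comparison, so the same mice that were low there enter here. Of 40 members 10 fell, 2 rose and 28 did not pass, while 13.2% of all genes passed (8.59% lower, 4.58% higher). The median was -0.29 over the members and 0.0 over all genes, and 32 of 40 members were below 0 (49.1% of all genes). At an unadjusted p under 0.05, 17 were lower (15.0% of all genes) and 3 higher (10.2%). Groups did not overlap for 9 members lower on fish oil (7.35% of all genes) and 2 higher (4.64%).

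The germ-free mice on fish oil, whose values are given above, were set against narrow groups on lard. Oasl1 lay between 8.41 and 8.86 on fish oil and between 9.16 and 9.29 (median 9.24) on lard, a gap with no overlap and a difference of -0.63 ± 0.11 (adjusted p = 0.000376). Ifit2 lay between 5.68 and 6.1 on fish oil and 6.42 and 6.71 (median 6.53) on lard (difference -0.69 ± 0.13, adjusted p = 0.00112). Irf7 was 8.25 to 8.82 on fish oil, below 8.91 to 9.22 (median 9.14) on lard (difference -0.54 ± 0.12, adjusted p = 0.00431). All 3 genes separated the diets mouse by mouse.

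Dhx58 and Ifih1, the RNA sensors, both fell. Dhx58 was 7.76 to 8.36 on fish oil and 8.38 to 8.6 (median 8.47) on lard (difference -0.48 ± 0.12, adjusted p = 0.00965). Ifih1 was 9.14 to 9.69 on fish oil and 9.68 to 9.97 (median 9.83) on lard, touching at fish oil mouse 2, with a difference of -0.46 ± 0.1 (adjusted p = 0.00325). Zbp1 was 7.42 to 8.12 on fish oil and 7.62 to 8.32 (median 7.92) on lard and did not pass (adjusted p = 0.386). The partners Parp9 and Dtx3l both fell, by 0.25 and by 0.3 on the log2 scale. Parp9 was 8.74 to 8.96 on fish oil and 8.99 to 9.24 (median 9.13) on lard (adjusted p = 0.0129), and Dtx3l was 9.55 to 9.71 on fish oil and 9.85 to 10.05 (median 9.93) on lard (adjusted p = 0.0098). Neither gene's groups overlapped.

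Oasl2, Lgals3bp and Trim30a were called, and each lost its call when some single mice were left out. Oasl2 was 7.35 to 8.04 on fish oil and 8.12 to 8.6 (median 8.28) on lard (difference -0.57 ± 0.16, adjusted p = 0.0197), and lost its call without fish oil mouse 1 or 5 or lard mouse 2 (adjusted p between 0.051 and 0.0734). Lgals3bp was 11.02 to 11.37 on fish oil and 11.52 to 11.87 (median 11.67) on lard (difference -0.42 ± 0.12, adjusted p = 0.0199). It lost its call without mouse 1 of fish oil or of lard (adjusted p between 0.0517 and 0.0672). Trim30a was 7.9 to 8.49 on fish oil and 8.42 to 8.99 (median 8.74) on lard (difference -0.47 ± 0.15, adjusted p = 0.0331), and lost its call without fish oil mouse 1, 5 or 6 or lard mouse 1, 2 or 3 (adjusted p between 0.0547 and 0.116).

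In germ-free mice 8 of 40 members were above 0 on fish oil against lard, and 2 of them rose. Mx2, a dynamin-like GTPase, had 6.0, 6.48, 6.59, 5.67 and 5.76 on fish oil, above 4.86 to 5.63 (median 5.26) on lard, with no overlap (difference 0.84 ± 0.19, adjusted p = 0.00512). Iigp1 was 11.34 to 11.66 on fish oil and 11.02 to 11.39 (median 11.12) on lard (difference 0.37 ± 0.1, adjusted p = 0.0112). Cxcl10 lay between 8.03 and 8.78 on fish oil and between 7.66 and 7.98 (median 7.74) on lard, without overlap, but did not pass (difference 0.69 ± 0.26, adjusted p = 0.0887). Ifit3 had the lowest estimate of all members, -0.74 ± 0.26, with 7.98 to 8.56 on fish oil and 8.71 to 9.52 (median 9.01) on lard, and did not pass either (adjusted p = 0.062). Usp18, Irf1, Stat2 and Irf9 differed by -0.56 ± 0.21, -0.32 ± 0.12, -0.21 ± 0.11 and -0.0 ± 0.09, and none passed. Oas2 was 6.81 to 7.16 on fish oil and 6.62 to 7.07 (median 6.86) on lard (difference 0.09 ± 0.11).

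Clock genes differed between mice of the fish oil germ-free group. Mice 5 and 6 of that group had Dbp minus Arntl, 2 clock genes in opposite phase, at 0.12 and -0.77, against 3.24 to 4.09 in the other samples of the group and 3.6 to 4.59 in the germ-free mice on lard. With this index as a covariate 7 members were called, 2 higher and 5 lower, and without mice 5 and 6 of both germ-free groups 5 were called, Mx2 and Iigp1 higher and Ifit2, Oasl1 and Parp9 lower. The 7 members lost without those mice differed by -0.62 (Oasl2) to -0.32 (Dtx3l) there, and the 5 lost with the covariate by -0.42 (Oasl2) to -0.22 (Dtx3l), against -0.57 and -0.3 for these genes in the fit reported above. With the same covariate 19 members were called in the comparison of germ-free with conventional mice on fish oil. The share of all genes called in these fits is not given, so the changed counts are not shown to be particular to the members. The macrophage markers did not fall here: 9 of 12 were above 0 and 1, Clec4f, rose (0.4 ± 0.13, adjusted p = 0.0492), a call that ended in 16 of 23 fits without 1 mouse (adjusted p up to 0.14). Their summed signal was 5977 to 8284 on fish oil and 4566 to 8762 on lard. Of 7 markers of monocytes and dendritic cells 5 fell, with summed signals of 476 to 541 on fish oil and 599 to 660 on lard. Ccr2, Cd209a and Flt3 lost their calls in 11, 12 and 13 of 37 alternatives, and Itgax and Cx3cr1 in 0. Of 6 endothelial markers 1 fell, Lyve1, which lost its call in 2 of 38 alternatives. Among 13 T and NK cell markers 1 rose, Cd4, and 1 fell, Ncr1 (calls lost in 10 and 5 of 37 alternatives). The part of any of these markers in the result was not tested.

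In the wider pathway list 4 genes rose and 3 fell in this comparison (median 0.02), or 11.9% of 59, against 13.2% of all genes. Irf5, a factor that induces inflammatory cytokines and interferon, averaged 8.4 ± 0.06 on fish oil and 7.62 ± 0.19 on lard (difference 0.78 ± 0.13, adjusted p = 0.000388). H2-Q4, a class I histocompatibility gene of a family with similar sequences, averaged 8.68 ± 0.09 on fish oil and 9.27 ± 0.21 on lard (difference -0.59 ± 0.11, adjusted p = 0.000965). Tlr3 averaged 6.85 ± 0.21 on fish oil and 7.49 ± 0.27 on lard (difference -0.63 ± 0.13, adjusted p = 0.00179). Of 16 interferon genes 1 rose, Ifna2, named after its values were seen (0.37 ± 0.12, adjusted p = 0.0346). The interferon alpha genes have similar sequences, and this call was lost without fish oil mouse 2, 5 or 6 or lard mouse 2, 3, 4 or 6 (adjusted p between 0.0525 and 0.122). Ifnar1, Ifnar2 and Ifngr1 differed by 0.15 ± 0.07, -0.02 ± 0.06 and -0.23 ± 0.08, and none passed.

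**Figure D4:**
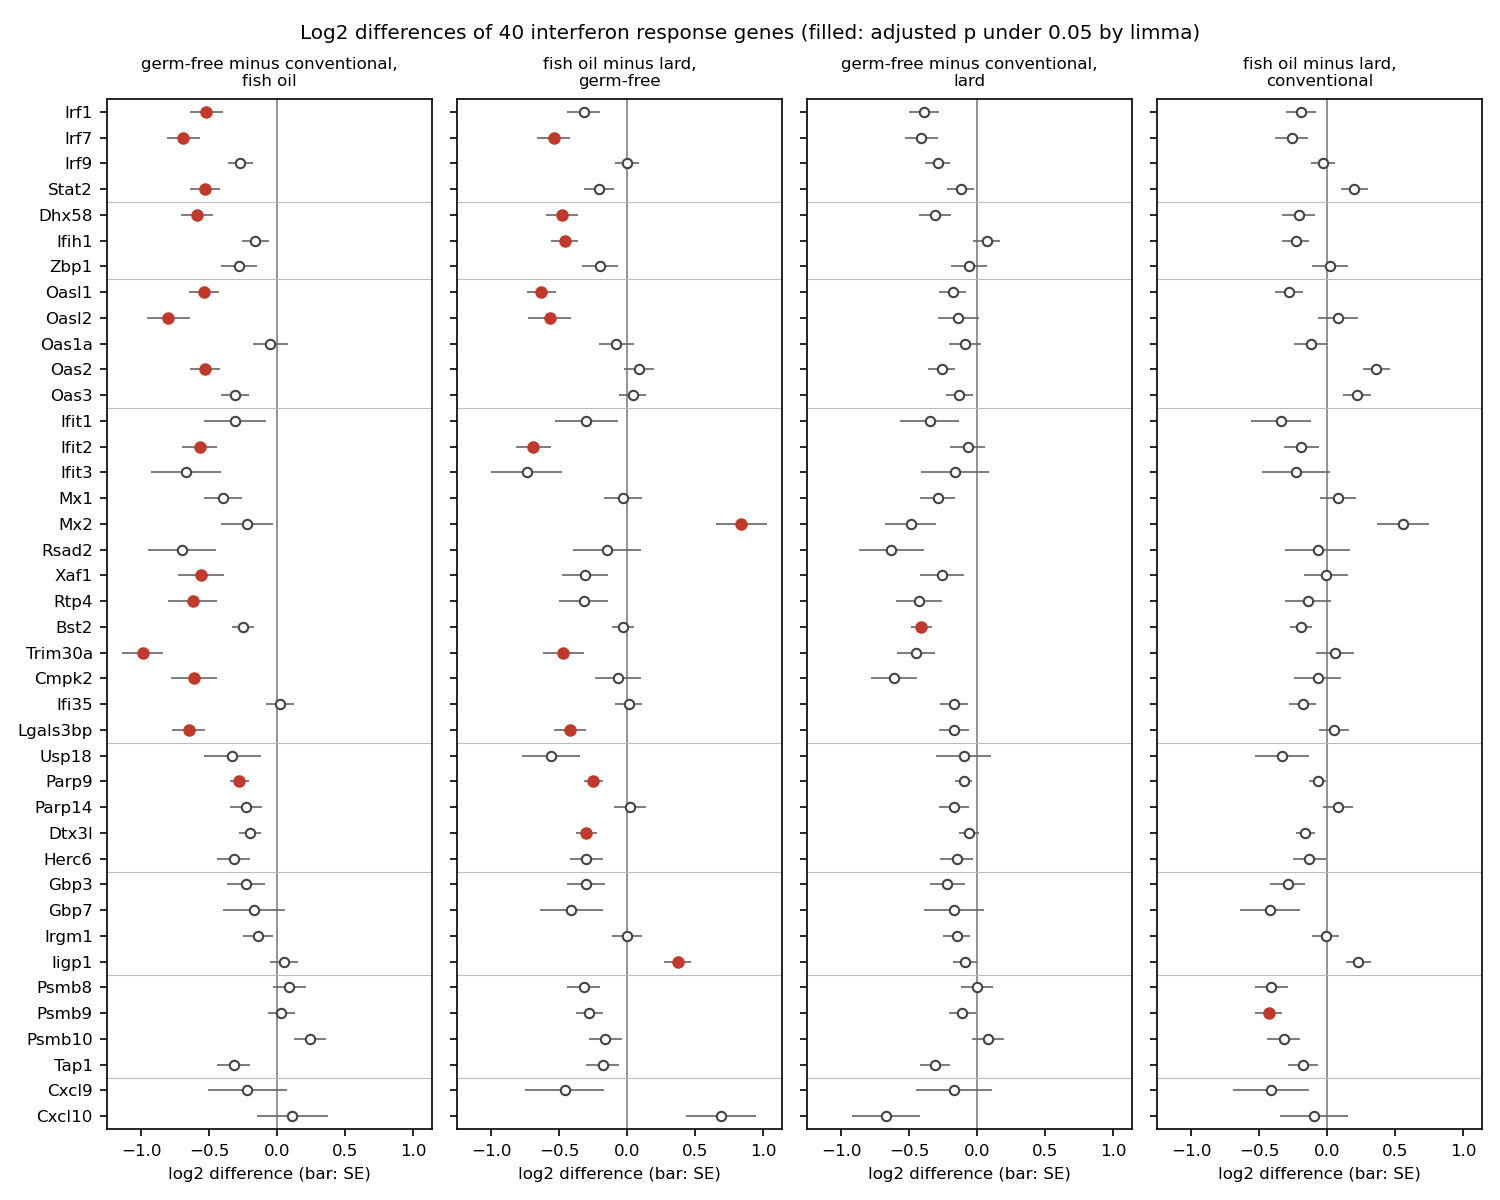
Log2 difference of each of the 40 members in the 4 pairwise comparisons (points, with the SE as bars), with genes in rows by role and filled points for an adjusted p under 0.05 by limma. Filled points are mostly left of 0 in the first and second panels (14 and 12 called), and the other panels have 1 each, Bst2 and Psmb9.

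The third comparison, germ-free against conventional mice on lard, asked the first question on the other diet. Here 1 of 40 members fell, none rose and 39 did not pass, while 1.82% of all genes passed (0.687% lower, 1.13% higher). Nearly every estimate was negative all the same: 38 of 40 were below 0 (53.0% of all genes), the median was -0.17 against -0.01 over all genes, and 14 members had an unadjusted p under 0.05 and a lower mean in germ-free mice (6.09% of all genes). Groups did not overlap for 3 members, Bst2, Irf7 and Dhx58, all lower in germ-free mice (1.04% of all genes).

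The gene that fell was Bst2 (tetherin), which holds budding virus particles at the cell surface. It lay between 9.93 and 10.08 (median 10.02) in germ-free mice and between 10.35 and 10.5 (median 10.43) in conventional mice, both narrow groups, with a difference of -0.41 ± 0.08 (adjusted p = 0.0051). On fish oil Bst2 had 9.86, 10.11, 9.94, 9.83 and 10.17 in germ-free mice and 9.96 to 10.5 (median 10.2) in conventional mice, and the difference of -0.25 ± 0.08 did not pass (adjusted p = 0.0632). Irf7 was 8.91 to 9.22 (median 9.14) in germ-free mice on lard and 9.3 to 9.66 (median 9.54) in conventional mice, without overlap, and missed the threshold (difference -0.41 ± 0.12, adjusted p = 0.0703). Dhx58 was 8.38 to 8.6 in germ-free mice and 8.61 to 9.01 (median 8.8) in conventional mice (difference -0.31 ± 0.12, adjusted p = 0.217).

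The lowest estimates belonged to genes whose conventional mice varied. Cxcl10 lay between 7.66 and 7.98 (median 7.74) in germ-free mice and between 7.39 and 9.37 (median 8.61) in conventional mice (difference -0.67 ± 0.25, adjusted p = 0.217). Rsad2 was 7.65 to 8.53 (median 8.03) in germ-free mice and 8.28 to 9.33 (median 8.64) in conventional mice (difference -0.63 ± 0.24, adjusted p = 0.243). Cmpk2 was 7.2 to 7.53 (median 7.24) in germ-free mice and 7.4 to 8.45 (median 8.04) in conventional mice (difference -0.61 ± 0.17, adjusted p = 0.0584). Conventional mouse 6 was the highest and mouse 1 the lowest of its group in all 3 genes. Mx2 was 4.86 to 5.63 in germ-free mice and 5.5 to 6.11 (median 5.62) in conventional mice (difference -0.49 ± 0.19, adjusted p = 0.227), and Trim30a 8.42 to 8.99 and 8.77 to 9.58 (median 9.19) in the same groups (difference -0.45 ± 0.14, adjusted p = 0.103). The other factors Irf1 (-0.39 ± 0.11), Irf9 (-0.29 ± 0.09) and Stat2 (-0.12 ± 0.1) did not pass.

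At the other end, Psmb10 and Ifih1 were the 2 members above 0. Psmb10 was 8.72 to 9.13 (median 9.02) in germ-free mice and 8.72 to 9.12 (median 8.88) in conventional mice (difference 0.08 ± 0.12). Ifih1 was 9.68 to 9.97 (median 9.83) in germ-free mice and 9.67 to 9.9 (median 9.75) in conventional mice (difference 0.07 ± 0.1). Psmb8 was 7.81 to 8.12 (median 7.98) in germ-free mice and 7.82 to 8.15 (median 7.98) in conventional mice, and Zbp1 was 7.62 to 8.32 and 7.79 to 8.17 (median 8.0). These ranges lay inside or across one another. Macrophage markers moved in this comparison as well: 5 of 12 fell. Their summed signals were 4566 to 8762 in germ-free mice and 9044 to 13639 in conventional mice. Of 7 markers of monocytes and dendritic cells 2 rose, Cx3cr1 and Itgax (calls lost in 7 of 38 and 19 of 37 alternatives). Among 13 T and NK cell markers 2 fell, Cd4 and Nkg7 (calls lost in 0 and 12 of 37 alternatives). The part of these markers in the result was not tested. In the pathway list 1 gene fell, Irf5 (7.62 ± 0.19 in germ-free mice, 8.12 ± 0.25 in conventional mice, difference -0.5 ± 0.13, adjusted p = 0.041), a call lost in 12 of 23 fits without 1 mouse (adjusted p up to 0.138). Ifnar1, Ifnar2 and Ifngr1 differed by -0.01 ± 0.07, 0.05 ± 0.06 and -0.05 ± 0.08. The count of members called was unstable: it was 6 without lard conventional mouse 1, 3 without fish oil conventional mouse 4, and 2 without fish oil conventional mouse 3 or 5 or lard conventional mouse 5. Without fish oil conventional mice 3 and 4, which enter only through the pooled spread, it was 6, with Irf7, Irf1, Irf9, Trim30a and Cmpk2 beside Bst2 (adjusted p between 0.0174 and 0.0352 for the added genes).

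In conventional mice, fish oil was set against lard. Of 40 members 1 fell, none rose and 39 did not pass, while 0.808% of all genes passed (0.602% lower, 0.206% higher). The median was -0.13 over the members and 0.01 over all genes, and groups did not overlap for 1 member, lower on fish oil (0.476% of all genes, with 0.522% higher). Below 0 were 29 of 40 members (45.9% of all genes). That gene was Psmb9, a catalytic subunit of the immunoproteasome, at 8.34 to 8.82 (median 8.62) on fish oil and 8.89 to 9.15 (median 9.01) on lard (difference -0.43 ± 0.1, adjusted p = 0.0423). Its neighbours in function were also below 0 without passing. Psmb8 was 6.99 to 7.97 (median 7.59) on fish oil and 7.82 to 8.15 (median 7.98) on lard (difference -0.41 ± 0.12, adjusted p = 0.0837), and Psmb10 was 8.18 to 9.0 and 8.72 to 9.12 (median 8.88) in the same groups (difference -0.32 ± 0.12, adjusted p = 0.178). The Psmb9 call was lost in 11 of 23 fits without 1 mouse: without fish oil conventional mouse 2, 3, 5 or 6, lard conventional mouse 1, 3, 4, 5 or 6, fish oil germ-free mouse 3/4 or lard germ-free mouse 2 (adjusted p between 0.0508 and 0.109).

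Several members stood out at the ends of this comparison without passing. Gbp7, a guanylate-binding GTPase, was 7.92 to 9.57 (median 8.46) on fish oil and 8.76 to 9.38 (median 9.16) on lard (difference -0.42 ± 0.22). Cxcl9 was 8.23 to 9.9 (median 9.22) on fish oil and 8.69 to 10.17 (median 9.63) on lard (difference -0.41 ± 0.28). Both genes had a fish oil range wider than the lard range. On the high side, Mx2 was 5.92 to 6.88 (median 6.25) on fish oil and 5.5 to 6.11 (median 5.62) on lard (difference 0.56 ± 0.19, adjusted p = 0.125). Oas2 was 7.21 to 7.94 (median 7.42) on fish oil and 7.0 to 7.26 (median 7.15) on lard (difference 0.36 ± 0.1, adjusted p = 0.0819). Oas3 was 6.48 to 7.08 (median 6.68) on fish oil and 6.39 to 6.6 (median 6.56) on lard (difference 0.22 ± 0.1), and Iigp1 was 11.11 to 11.78 (median 11.45) on fish oil and 11.17 to 11.31 (median 11.27) on lard (difference 0.23 ± 0.09). Mx2 and Iigp1 are the genes that rose on fish oil in germ-free mice. No gene of the 59 in the pathway list and no macrophage marker passed (9 and 3 higher, 1 and 0 lower at an unadjusted p under 0.05 by limma), and Ifnar1, Ifnar2 and Ifngr1 differed by 0.08 ± 0.07, 0.02 ± 0.06 and 0.13 ± 0.08.

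This count changed most without fish oil conventional mice 3 and 4. Without them 11 members were called on fish oil against lard in conventional mice, 9 lower and 2 higher, and the median was -0.24. The share of all genes called in that fit is not given, so the rise is not shown to be particular to the members. The 9 lower were Gbp7 (-0.83 ± 0.17), Ifit3 (-0.7 ± 0.18), Ifit1 (-0.66 ± 0.2), Usp18 (-0.6 ± 0.19), Irf7 (-0.43 ± 0.11), Psmb9 (-0.43 ± 0.1), Dhx58 (-0.38 ± 0.11), Ifih1 (-0.34 ± 0.1) and Dtx3l (-0.27 ± 0.06), with adjusted p between 0.00391 and 0.0439. The 2 higher were Oas2 (0.4 ± 0.12) and Oas3 (0.34 ± 0.1). In the same fit 9 of 12 macrophage markers were higher on fish oil. These 2 mice were left out after the data were seen, so the values describe how far the count depends on them.

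**Figure D5:**
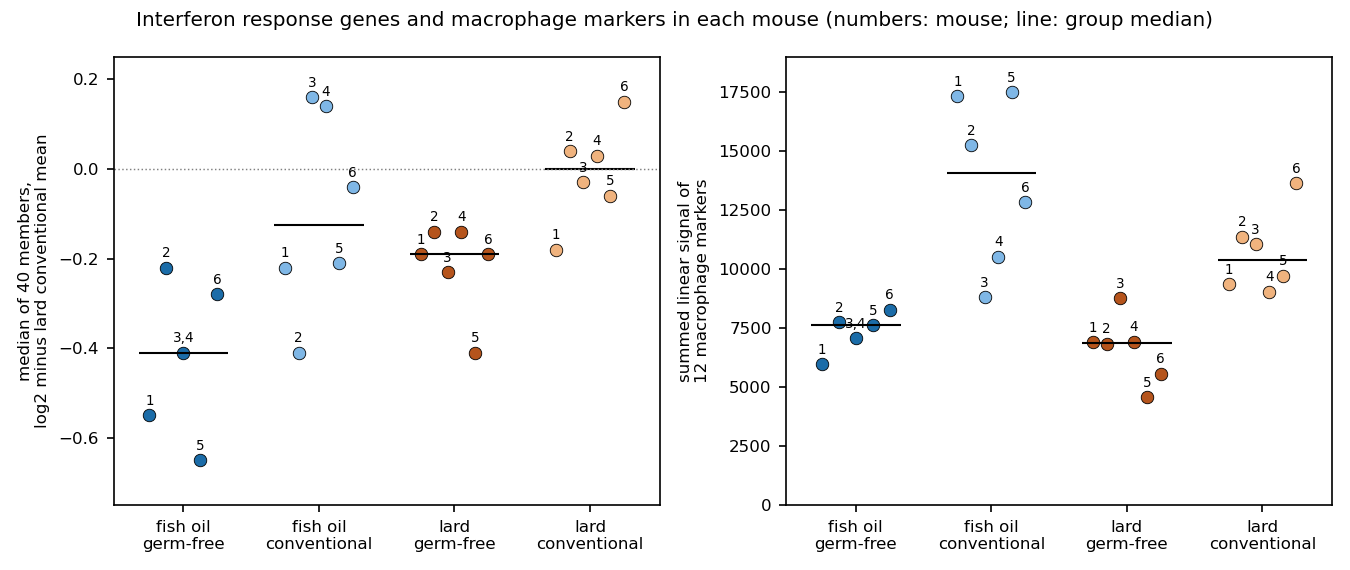
Left, the median over 40 members of each mouse's log2 signal minus the gene's mean in the conventional mice on lard; right, the summed linear signal of 12 macrophage markers; points are numbered by mouse and lines are group medians. Fish oil conventional mice 3 and 4 are the highest of their group on the left (0.16 and 0.14) and the lowest on the right (8822 and 10523).

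Single mice were the highest or lowest of their group for many members. Fish oil conventional mouse 3 was the highest of its group for 19 of 40 members, mouse 4 for 10 and mouse 6 for 9. Mouse 2 was the lowest of that group for 22. Relative to the lard conventional mean, the median over the members was 0.16 and 0.14 in mice 3 and 4 and between -0.41 and -0.04 in the other 4 mice of that group. The germ-free mice on fish oil lay at -0.55, -0.22, -0.41, -0.65 and -0.28, and fish oil conventional mice 1, 2 and 5 lay at -0.22, -0.41 and -0.21, within or just above that range. On lard, germ-free mice lay between -0.41 and -0.14 and conventional mice between -0.18 and 0.15. Mouse 6 was the highest of the conventional mice on lard for 25 of 40 members. Such counts of the highest or lowest mouse were not made over all genes, so they are not shown to be particular to the members. The median SD of a member was 0.236 in germ-free mice on fish oil and 0.282 in conventional mice on fish oil, against 0.147 in germ-free mice on lard and 0.165 in conventional mice on lard. Over all genes the medians were 0.128, 0.164, 0.136 and 0.123 in the same order of groups. Fish oil conventional mice 3 and 4 had a clock index of 2.49 and 3.66, against -2.04 to 0.05 in the other 4. The acute-phase gene Saa1 did not follow the members: it was 11.64 and 10.81 in fish oil conventional mice 5 and 6 and 6.53 and 6.48 in mice 3 and 4.

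The last comparison asked whether the effect of fish oil differed between germ-free and conventional mice, as the diet difference in germ-free mice minus that in conventional mice. No member of 40 passed by limma, while 0.607% of all genes did, and 7 had an unadjusted p under 0.05, 6 below 0 (6.96% of all genes) and 1 above (5.21%). Estimates below 0 were found for 27 of 40 members (54.7% of all genes). The 6 were Oasl2 (-0.65 ± 0.22, adjusted p = 0.185), Trim30a (-0.53 ± 0.2, adjusted p = 0.257), Ifit2 (-0.5 ± 0.18, adjusted p = 0.241), Lgals3bp (-0.48 ± 0.17, adjusted p = 0.198), Stat2 (-0.41 ± 0.15, adjusted p = 0.232) and Oasl1 (-0.36 ± 0.15, adjusted p = 0.323), and the 1 above was Cxcl10 (0.79 ± 0.36, adjusted p = 0.383). The same estimates are the germ-free effect on fish oil minus that on lard, so the larger count of calls on fish oil was not shown to differ from that on lard for any single member. The median over the members was -0.12 against -0.02 over all genes, and it was 0.04 without fish oil conventional mice 3 and 4.

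Across the 5 comparisons 20 of the 40 members were called at least once and 20 in none. The share of all genes called at least once was not counted, so these counts cannot be set against it. Irf7, Oasl1 and Dhx58 had their lowest group mean in germ-free mice on fish oil and their highest in conventional mice on lard. Oas2 was highest in conventional mice on fish oil, with 6.96 ± 0.13 and 7.49 ± 0.27 in germ-free and conventional mice on fish oil and 6.86 ± 0.19 and 7.13 ± 0.11 in germ-free and conventional mice on lard (SD). Psmb9 had lower group means on fish oil, with 8.62 ± 0.25 and 8.59 ± 0.21 in germ-free and conventional mice (SD). On lard they were 8.9 ± 0.12 and 9.01 ± 0.11 in the same order. In germ-free mice the diet difference of Psmb9 did not pass (-0.28 ± 0.1, SE, adjusted p = 0.0784 by limma). The ranges of neighbouring groups could overlap, as for Oas2 and Psmb9 in germ-free mice on the 2 diets. Those of Psmb9 also overlapped in the 2 groups on fish oil.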

How the data were processed

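Liver RNA of 24 mice was measured on the MoGene 1.0 ST array. The deposited values are log2 signals on the RMA scale; the file headers name Expression Console with version 1.1.2800.28061 of its apt engine and release r4 of the library files. The 2 deposited forms of the table differed by at most 0.005. Of 35556 probe sets, 21789 carried 1 gene symbol, 1621 several and 12146 none. Of those with 1 symbol, 21698 were matched to the current symbol through Entrez identifiers, whether or not it differed. The brightest probe set by mean stood for each of 999 genes with several, which gave 19938 genes. Array depth does not apply, and the number of arrays limits the precision.

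Group means were fitted with limma 3.58.1 (R 4.3.3) over 23 samples, with Benjamini-Hochberg adjustment over all genes in each comparison, and an adjusted p under 0.05 made a call. Tables and figures used Python 3.11.15, pandas 2.3.3 and matplotlib 3.10.9. The script was tested on simulated data. The p-values set a difference of group means against the pooled spread between samples within groups. The fit assumes that the mice are independent, which the labels do not state beyond numbering them. Replicate numbers did not pair the mice.

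Values by mouse, or the lowest, median and highest of groups of 6, are given for every called member, for the 4 highest and 4 lowest members of each pairwise comparison, and for a few fixed by name, among them Irf9, Ifit1 and Usp18. In the wider pathway list at most 3 called genes with the smallest p per comparison are named, with 3 receptor genes, and Erap1 and Ifna2 were added after their values were seen. The members, lists and tests were chosen with earlier results of these data known. In all 38 alternatives were tried, among them leaving out each mouse, other normalizations, array weights, a replicate block and a clock covariate.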

Additional observations from a re-analysis of the deposited data

Results flagged for a closer look

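Within groups, 4 single values lay far from the rest, in 160 tests of a member in a group, by a gap test that chance alone passes in about 5% of groups. Stat2 was 9.41 in lard conventional mouse 5 and 9.64 to 9.76 in the other 5. Xaf1 was 6.52 in lard germ-free mouse 5 and 6.96 to 7.14 in the others, and Herc6 was 8.45 in the same mouse and 8.73 to 8.86 in the others. Cmpk2 was 6.89 in fish oil germ-free mouse 1 and 7.27 to 7.4 in the others. Lard germ-free mouse 5 was the lowest of its group for 21 of 40 members, a count that was not made over all genes.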

How the results depend on the processing

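The 28 calls of single members were refitted under 38 alternatives, which gave 1061 values. Of these 974 stayed past the threshold in the same direction, 87 no longer passed and 0 changed direction. Many of the alternatives could hardly change a call. Leaving out a mouse of a group outside the comparison leaves the estimate as it was, and the 2 deposited tables differed by at most 0.005. The count of members called on germ-free against conventional mice on fish oil (14) was 6 with those 2 groups fitted alone and 11 to 18 without single mice. The count on fish oil against lard in germ-free mice (12) was 7 with the clock covariate, 5 without germ-free mice 5 and 6 of both diets, and 10 to 14 without single mice. The count on germ-free against conventional mice on lard (1) was 2 with equal array medians, 2 with all 24 arrays, 2 with the replicate block, 2 without fish oil conventional mice 5 and 6, 5 with the 2 groups alone, 5 with the clock covariate, 8 with array weights, 6 without fish oil conventional mice 3 and 4, and 1 to 6 without single mice. The count on fish oil against lard in conventional mice (1) was 0 with a second quantile normalization, with the 75th percentile as a covariate, with the 2 groups alone, with the clock covariate and without fish oil conventional mice 5 and 6, where limma gave 7, 6, 11, 9 and 8 members at an unadjusted p under 0.05. It was 11 without fish oil conventional mice 3 and 4, and 0 to 1 without single mice. No member was called in the diet by microbe comparison under any alternative, and the median over its members, -0.12, turned to 0.04 without fish oil conventional mice 3 and 4. The cause of these changes was not tested. Shares of all genes are given for the main fits and not for the alternatives. A changed count is therefore not shown to be particular to the members. The fits without fish oil conventional mice 3 and 4 were chosen after seeing the data. With the replicate block, which was fitted to the 24 arrays without averaging, the 5 counts were 18, 16, 2, 1 and 0, and with the 24 arrays and no block they were 17, 15, 2, 1 and 0. Mice of the same number correlated between -0.4 and 0.43 in their deviations, and at most 3 of 12 samples correlated best with their own number, so the block pairs mice that share only a number. Dim probe sets limit Ifit2, Mx1 and Mx2, which lay below the 25th percentile of the 19938 genes (5.541 to 5.78) on some array.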
